A study of Mus musculus with 2 samples.

Results

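Tcf7l2, Lhx9, Lhx2, Gbx2, Shox2, Prox1 and Nkx6-1 are transcription factor genes of the developing thalamus and neighbouring diencephalon, and they were measured in single cells of the newborn mouse hypothalamus that carry the Sim1 lineage. They are 7 of the 24905 genes of the deposited count table, and all 7 were found there by symbol. They were chosen by their measured ratio between the libraries and by the cells they were seen in, so every value given here describes the data and none is tested. The study sorted tdTomato-positive cells from dissected hypothalami of CD-1 pups aged postnatal day 1 to 4 and sequenced the 3' ends of their transcripts by Drop-seq, a droplet method that tags every captured transcript so that molecules can be counted as unique molecular identifiers (UMIs). It has 1 library of Sim1 heterozygous cells (Sim1-Cre;tdTomato+/-;Sim1+/-) and 1 library of control cells (Sim1-Cre;tdTomato+/-), each pooled from 6 pups. Both genotypes carry the Sim1-Cre driver and the Ai14 reporter, which marks a cell permanently once it, or a cell it descends from, has made Cre. Since each genotype is a single library, no difference has a replicate check and no p-value is given. Intervals are 95% intervals that cover counting error only, and UMIs of 1 cell are not independent. The labels do not say how pups of each age fell into the pools.

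Tcf7l2 is an HMG-box factor that binds beta-catenin and carries Wnt signals to their target genes, and it marks the thalamus and habenula of the developing and postnatal brain. Gbx2, Lhx9, Lhx2 and Shox2 are homeobox genes of thalamic neurons, of which Gbx2 marks newly formed neurons and Lhx9 and Lhx2 belong to the LIM class. Prox1 is a prospero-type homeobox gene of several neuron classes, and Nkx6-1 is a homeobox gene best known from the ventral spinal cord and the insulin cells of the pancreas. Sim1 and Otp are the factors that the neuroendocrine neurons of the paraventricular hypothalamus need, and Pmch encodes the precursor of melanin-concentrating hormone, a product of lateral hypothalamic neurons.

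After barcodes with under 300 genes were left out, the Sim1 heterozygous library held 2454 cells with a median of 1583 UMIs, and the control library held 2806 cells with a median of 1772 UMIs. Neuron-like clusters held 97.7% of the Sim1 heterozygous cells and 98.0% of the control cells. Sim1 itself had 494 UMIs in Sim1 heterozygous cells and 732 UMIs in control cells, a log2 ratio of -0.29 (95% interval -0.46 to -0.13). The labels do not say which stretch of Sim1 is lost, so a 3' tag may not check the genotype. The sort by tdTomato can set the share of any cell type in a library. No cell barcode sequence was shared between the libraries, and doublets were not removed.

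All 7 genes were lower in the Sim1 heterozygous library, as the choice of genes fixes. Levels are UMIs per 1000000 UMIs of the library (CPM), and a log2 ratio divides the Sim1 heterozygous by the control level after 1 UMI is added to each. Tcf7l2 had 253 UMIs (46.9 CPM, 41.3 to 53.1) in Sim1 heterozygous cells and 1065 UMIs (163 CPM, 154 to 173) in control cells, a log2 ratio of -1.79 (-2.0 to -1.60). Gbx2 had 3 UMIs in Sim1 heterozygous cells and 34 UMIs in control cells (log2 ratio -2.85, -5.57 to -1.56). Lhx9 had 29 UMIs in Sim1 heterozygous cells and 161 UMIs in control cells (-2.16, -2.82 to -1.62). Lhx2 had 14 UMIs in Sim1 heterozygous cells and 74 UMIs in control cells (-2.05, -3.07 to -1.29). The intervals of these 4 genes overlap, and that of Gbx2 is wide because only 3 UMIs stand behind its Sim1 heterozygous value.

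Shox2 and Prox1 differed least. Shox2 had 35 UMIs in Sim1 heterozygous cells and 79 UMIs in control cells (log2 ratio -0.88, -1.52 to -0.31), and Prox1 had 88 UMIs in Sim1 heterozygous cells and 195 UMIs in control cells (-0.86, -1.25 to -0.50). Their intervals do not leave out a difference of 1.5-fold, whereas those of the other genes do. Nkx6-1 had 7 UMIs in Sim1 heterozygous cells and 44 UMIs in control cells (-2.22, -3.77 to -1.21). The 7 genes were all lower by at least 1.5-fold, as were 9.27% of the 14600 genes whose UMIs in the libraries came to 30 or more, while 7.82% were higher. Their median log2 ratio was -2.05, beside 0.04 for all genes tested. Lhx9, Lhx2, Gbx2 and Nkx6-1 passed the minimum of 30 UMIs through the control library alone, so nothing is read from this count. Otp differed less (log2 ratio -0.64, -0.74 to -0.54), and Pmch had 377 CPM in Sim1 heterozygous cells and 1337 CPM in control cells (-1.82, -1.90 to -1.76).

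**Figure D1:**
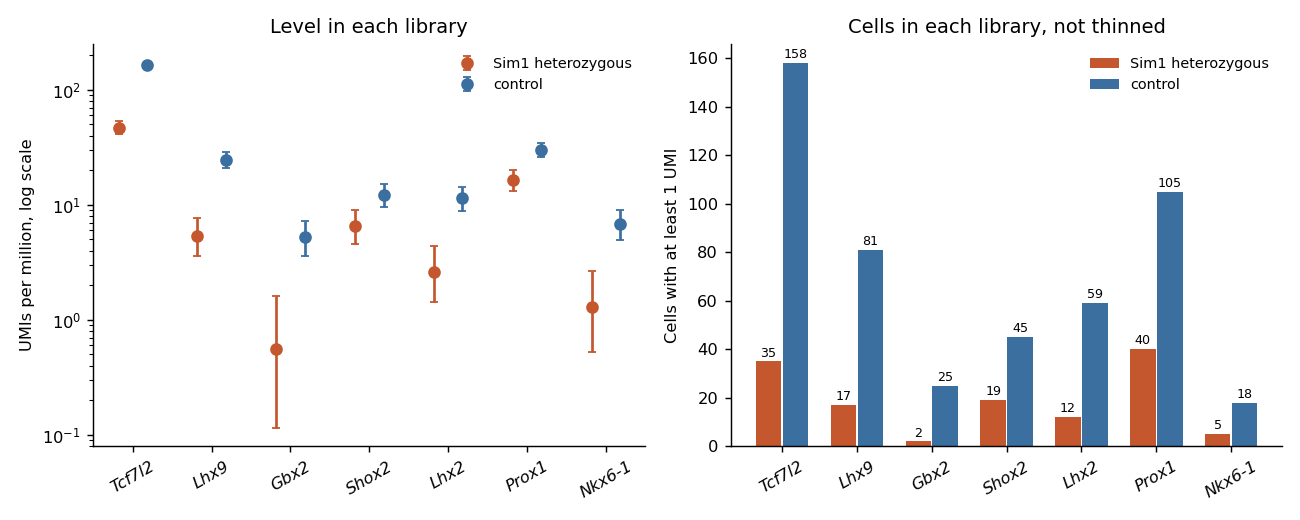
Left, level of each of the 7 genes in CPM on a log axis, with the Sim1 heterozygous point left of the control point and bars giving the exact 95% Poisson interval. Right, number of cells with at least 1 UMI in each library, where Tcf7l2 stands at 35 Sim1 heterozygous and 158 control cells.

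Fewer Sim1 heterozygous than control cells held a Tcf7l2 UMI. At least 1 Tcf7l2 UMI was found in 35 Sim1 heterozygous cells (1.43%) and in 158 control cells (5.63%). Inside those cells Tcf7l2 stood at 2191 CPM in the Sim1 heterozygous library and at 2371 CPM in the control library. In a library sum fewer cells of a type and less RNA per cell cannot be told apart, and since the cells were picked for a Tcf7l2 UMI, their level does not decide between them. The highest Tcf7l2 cell held 32 UMIs in the Sim1 heterozygous library and 48 UMIs in the control library, and the 5 cells with most UMIs held 56.5% of the Sim1 heterozygous Tcf7l2 UMIs and 15.1% of the control ones. A handful of cells therefore carries most of the Sim1 heterozygous signal.

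Other members were seen in fewer cells and with few UMIs each. Among Sim1 heterozygous cells Lhx9 was found in 17, Lhx2 in 12, Gbx2 in 2, Shox2 in 19, Prox1 in 40 and Nkx6-1 in 5. Among control cells Lhx9 was found in 81, Lhx2 in 59, Gbx2 in 25, Shox2 in 45, Prox1 in 105 and Nkx6-1 in 18. To set depth equal, each cell was also thinned to 857 UMIs, which kept 1841 Sim1 heterozygous cells and 2650 control cells. Tcf7l2 was then seen in 1.20% of Sim1 heterozygous cells and 4.53% of control cells. Lhx9, seen unthinned in 0.693% of Sim1 heterozygous and 2.89% of control cells, was seen in 0.272% of Sim1 heterozygous and 1.47% of control cells. Among the genes of thalamic neurons, Shox2 was seen unthinned in 0.774% of Sim1 heterozygous and 1.60% of control cells, and thinned in 0.435% of Sim1 heterozygous and 0.642% of control cells. Gbx2, seen unthinned in 0.0815% of Sim1 heterozygous and 0.891% of control cells, was seen in 0 of 1841 thinned Sim1 heterozygous cells, which allows a share of up to 0.163%, and in 0.340% of control cells. Thinned shares were 0.217% of Sim1 heterozygous and 0.868% of control cells for Lhx2, 1.03% of Sim1 heterozygous and 1.96% of control cells for Prox1, and 0.0543% of Sim1 heterozygous and 0.264% of control cells for Nkx6-1. The order between the libraries was the same with and without thinning for all 7 genes.

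Magnocellular cells, taken as those with at least 10 Avp or Oxt UMIs, were used to show how much free RNA a cell picks up. That use assumes that such cells lack these genes. There were 28 such cells in the Sim1 heterozygous library (median 2210 UMIs) and 130 in the control library (median 2336 UMIs). Tcf7l2 was found in 0 of the Sim1 heterozygous and in 1 of the control magnocellular cells (0.769%), Shox2 likewise, and Lhx9, Gbx2 and Nkx6-1 in none of either library, where 0 of 28 Sim1 heterozygous cells allows a share of up to 10.7% and 0 of 130 control cells one of up to 2.31%. Lhx2 was found in 4 control magnocellular cells (3.08%) and Prox1 in 6 (4.62%), both above the shares of all control cells (2.10% and 3.74%), and Prox1 in 1 Sim1 heterozygous magnocellular cell (3.57%), above that of all Sim1 heterozygous cells (1.63%). In the control library as a whole Tcf7l2 had 1065 UMIs, Prox1 195 and Lhx2 74, so these counts did not follow the library levels. Whether the Lhx2 and Prox1 UMIs are free RNA or the cells' own was not tested. No difference between the libraries is therefore read from the unthinned shares of all cells with Lhx2 or Prox1. These genes were not spread evenly, however: the cluster led by Zic4 and Zic1, described further on, held 39.8% of the Sim1 heterozygous and 49.7% of the control Prox1 UMIs, and 71.4% of the Sim1 heterozygous and 43.2% of the control Lhx2 UMIs. After thinning, the magnocellular cells were 23 in the Sim1 heterozygous library (median 2674 UMIs before thinning), with none of the 7 genes, and 130 in the control library, of which 2 held Lhx2 and 2 held Prox1 (1.54% each). Tcf7l2 was also seen in 4 of 57 Sim1 heterozygous glia-like cells and 6 of 55 control glia-like cells.

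The genes lie on 5 chromosomes of the mm10 build, with spans from GENCODE M21. Tcf7l2 lies at chr19:55741820-55933654 on the plus strand and Lhx2 at chr2:38339281-38369733 on the plus strand. Lhx9 (chr1:138825186-138848577), Gbx2 (chr1:89927956-89931179) and Prox1 (chr1:190118035-190170714) all lie on the minus strand of chromosome 1, far apart. Shox2 (chr3:66971727-66981771) and Nkx6-1 (chr5:101658139-101664996) lie on the minus strand too. Each is a protein-coding gene. Shox2 overlaps Rsrc1, Prox1 overlaps the long noncoding RNA Prox1os, and Gbx2 overlaps D130058E05Rik, in each case on the opposite strand, and use of strand in counting is not given, so reads of such a pair cannot be told apart. Rsrc1 had 527 UMIs in Sim1 heterozygous cells and 611 UMIs in control cells, and Prox1os had 9 UMIs in Sim1 heterozygous cells and 27 UMIs in control cells.

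The promoters of Tcf7l2 and of Lhx9 and Shox2, most of whose cells held Tcf7l2, are shown because Tcf7l2 encodes a factor with a known core site that can be looked for in them. The windows are RefSeq's, in GRCm38.p6, and run from 250 bases before a gene's start to 50 after it. The Lhx9 window is at a RefSeq start inside the span given above. The searched motif was the TCF and LEF core CTTTGA, read on the other strand as TCAAAG, and capitals mark it.
Tcf7l2, chr19:55741560-55741859, plus strand: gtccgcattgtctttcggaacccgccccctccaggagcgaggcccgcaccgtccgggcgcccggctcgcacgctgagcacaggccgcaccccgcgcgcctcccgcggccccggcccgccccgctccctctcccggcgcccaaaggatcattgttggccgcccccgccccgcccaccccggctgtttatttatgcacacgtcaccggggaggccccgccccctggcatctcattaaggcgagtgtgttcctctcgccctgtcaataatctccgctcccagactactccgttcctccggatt
Lhx9, chr1:138842395-138842694, minus strand: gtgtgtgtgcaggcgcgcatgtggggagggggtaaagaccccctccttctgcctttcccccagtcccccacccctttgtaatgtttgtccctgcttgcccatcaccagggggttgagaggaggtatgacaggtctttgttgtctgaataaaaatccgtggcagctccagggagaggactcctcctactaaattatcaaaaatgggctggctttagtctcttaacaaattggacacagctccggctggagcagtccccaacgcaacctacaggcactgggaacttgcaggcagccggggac
Shox2, chr3:66981722-66982021, minus strand: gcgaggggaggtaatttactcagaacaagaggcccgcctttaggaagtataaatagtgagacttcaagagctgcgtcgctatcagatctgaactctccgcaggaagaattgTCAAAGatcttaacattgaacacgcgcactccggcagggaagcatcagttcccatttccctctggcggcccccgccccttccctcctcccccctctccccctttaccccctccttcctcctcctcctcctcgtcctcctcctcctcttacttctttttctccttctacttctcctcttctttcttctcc
All 7 genes matched windows of the table, 10 in all, and the core was found in 1 of them, at position 112 of the Shox2 window. Windows not shown include a second one of Tcf7l2 (chr19:55895071-55895370) and that of Gbx2, most of whose cells also held Tcf7l2. It was found in 5257 of all 32851 windows (16.0%). The homeodomain letters TAATTA, which read the same on both strands and do not overlap with the core, were found in none of the 10 windows and in 5.29% of all. A match is a description of letters, and a missing one says nothing of a factor's binding.

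Tcf7l2 and Lhx9 shared cells in both libraries. Of the cells with a Tcf7l2 UMI, 12 of 35 Sim1 heterozygous cells (34.3%, 19.1 to 52.2) and 76 of 158 control cells (48.1%, 40.1 to 56.2) also held Lhx9, and these intervals overlap. Among cells with no Tcf7l2 UMI, Lhx9 was found in 0.207% of Sim1 heterozygous cells and 0.189% of control cells. Tcf7l2-positive cells were deeper, with a median of 2003 UMIs against 1577 in Tcf7l2-negative cells of the Sim1 heterozygous library, and of 2234 UMIs against 1752 in those of the control library. Read the other way, most Lhx9 cells held Tcf7l2: 12 of 17 Sim1 heterozygous cells (70.6%, 44.0 to 89.7) and 76 of 81 control cells (93.8%, 86.2 to 98.0) did. Tcf7l2 cells without an Lhx9 UMI were common, and Lhx9 cells without a Tcf7l2 UMI were 5 in each library.

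Gbx2 cells lay mostly inside the same set. Gbx2 was found with Tcf7l2 in both of its 2 Sim1 heterozygous cells and in 21 of 25 control cells (84.0%), and with Lhx9 in 1 of 2 Sim1 heterozygous cells and 20 of 25 control cells (80.0%). Shox2 cells held Tcf7l2 in 12 of 19 Sim1 heterozygous cells (63.2%) and 38 of 45 control cells (84.4%). Lhx2 and Prox1 overlapped with Tcf7l2 only in part: Lhx2 cells held it in 3 of 12 Sim1 heterozygous and 29 of 59 control cells (49.2%), and Prox1 cells in 8 of 40 Sim1 heterozygous and 43 of 105 control cells (41.0%). From the side of Tcf7l2, its 158 control cells held Prox1 in 27.2%, Shox2 in 24.1%, Lhx2 in 18.4% and Gbx2 in 13.3%. As detected, the genes thus formed a nested set in the control library, with Gbx2, Lhx9 and Shox2 cells mostly within the Tcf7l2 cells. Control Tcf7l2 had 6.74 UMIs per positive cell, against 1.99 for Lhx9, 1.76 for Shox2 and 1.36 for Gbx2. The part of detection in this nesting was not tested.

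Most cells that held more than 1 of the genes held Tcf7l2. At least 2 of the 7 were found in 18 Sim1 heterozygous cells, all with Tcf7l2, and in 106 control cells, 105 of them with Tcf7l2. Exactly 1 cell of each library held 6 of the genes and no cell held all 7. On thinned cells, Tcf7l2 cells held Lhx9 in 4 of 22 Sim1 heterozygous cells (18.2%) and 35 of 120 control cells (29.2%), and Lhx9 cells held Tcf7l2 in 4 of 5 Sim1 heterozygous cells and 35 of 39 control cells (89.7%). Of the 21 pairs of genes, 16 shared a cell in the Sim1 heterozygous library and 15 in the control library. After thinning 5 did so in the Sim1 heterozygous library and 12 in the control library. With so few Sim1 heterozygous cells, sharing was not detectable at this depth for the other pairs there.

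**Figure D2:**
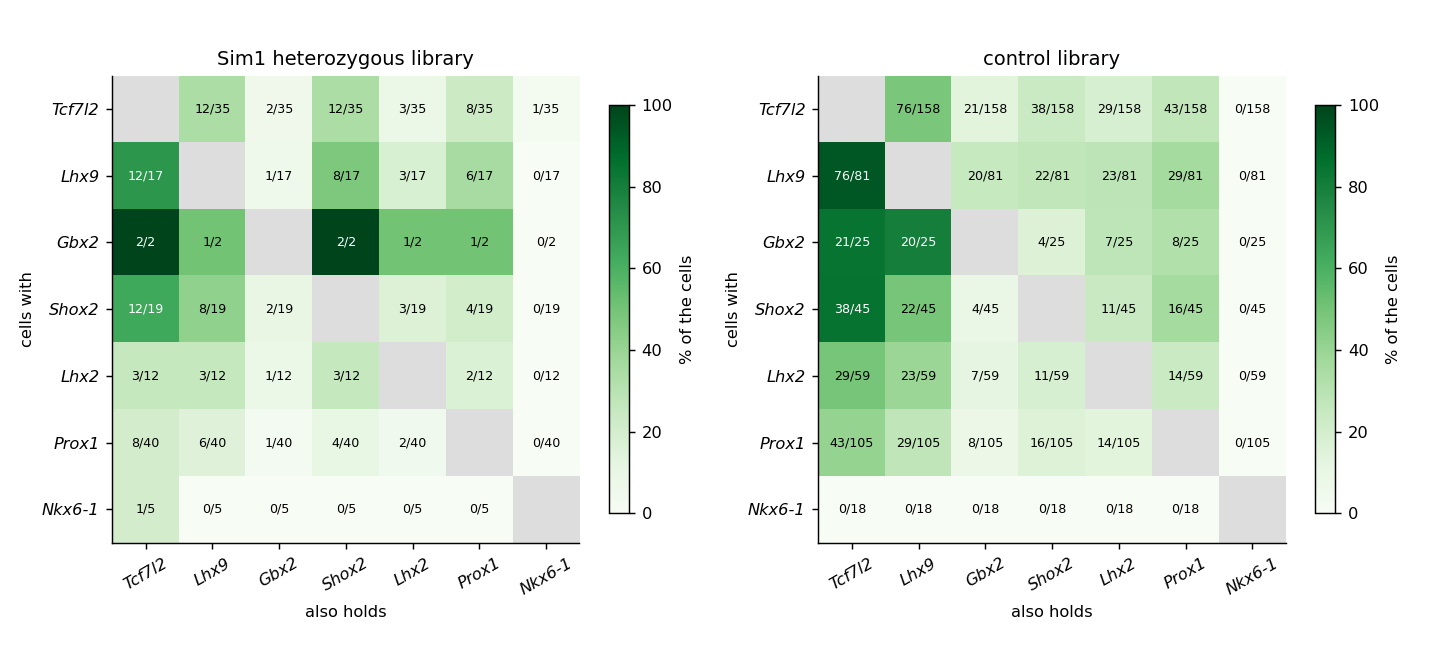
Of the unthinned cells with a UMI of the gene on the vertical axis, the percent that also held the gene on the horizontal axis, as colour and as cell counts, for the Sim1 heterozygous library (left) and the control library (right). The control Lhx9 cells held Tcf7l2 in 93.8%.

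Lhx9 was found in the largest share of cells where Tcf7l2 was highest, but its control level was not highest there. Of the cells with at least 10 Tcf7l2 UMIs, 7 of 7 Sim1 heterozygous cells and 25 of 35 control cells held Lhx9. Prox1 was found in 6 of these 7 Sim1 heterozygous cells and 18 of the 35 control cells, and Shox2 in 4 of the 7 Sim1 heterozygous and 18 of the 35 control cells. These cells were also deeper than those with fewer Tcf7l2 UMIs, with a median of 7683 UMIs in the Sim1 heterozygous library and 4790 in the control library. In control cells Lhx9 stood at 398 CPM at 10 or more Tcf7l2 UMIs, 472 CPM at 3 to 9, 349 CPM at 2 and 85.4 CPM at 1. In Sim1 heterozygous cells it stood at 288 CPM at 10 or more, 187 CPM at 3 to 9, 0 CPM at 2 and 101 CPM at 1. The part of depth in the shares was not tested. Of the cells with 1 Tcf7l2 UMI, 1 of 12 Sim1 heterozygous cells and 6 of 38 control cells held Lhx9. Taking only cells with at least 3 Tcf7l2 UMIs, Lhx9 was found in 11 of 17 Sim1 heterozygous cells (64.7%) and in 62 of 98 control cells (63.3%). Cells at 1 or 2 Tcf7l2 UMIs made up 18 of 35 Tcf7l2 cells in the Sim1 heterozygous library and 60 of 158 in the control library, and Lhx9 was found in 1 of these 18 Sim1 heterozygous and 14 of these 60 control cells (23.3%).

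In the control library Tcf7l2 and Otp lay in separate cells, apart from cells with few UMIs of 1 of them. Otp was found in 2 of 35 Tcf7l2-positive Sim1 heterozygous cells (5.71%, 0.70 to 19.2), against 17.8% of Tcf7l2-negative ones. That interval includes 17.8%, so a separation was not detectable at this depth in the Sim1 heterozygous library. In the control library Otp was found in 12 of 158 Tcf7l2-positive cells (7.59%, 3.99 to 12.9), against 30.4% of negative ones. These shared cells were 0.463% of the Sim1 heterozygous Otp cells and 1.47% of the control Otp cells. At 3 UMIs or more of each gene, 17 Sim1 heterozygous cells held Tcf7l2, 172 held Otp and 0 held both, and 98 control cells held Tcf7l2, 338 held Otp and 0 held both. The 0 of 98 control cells allows a share of up to 3.06%, and the 0 of 17 Sim1 heterozygous cells a share of up to 17.6%.

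**Figure D3:**
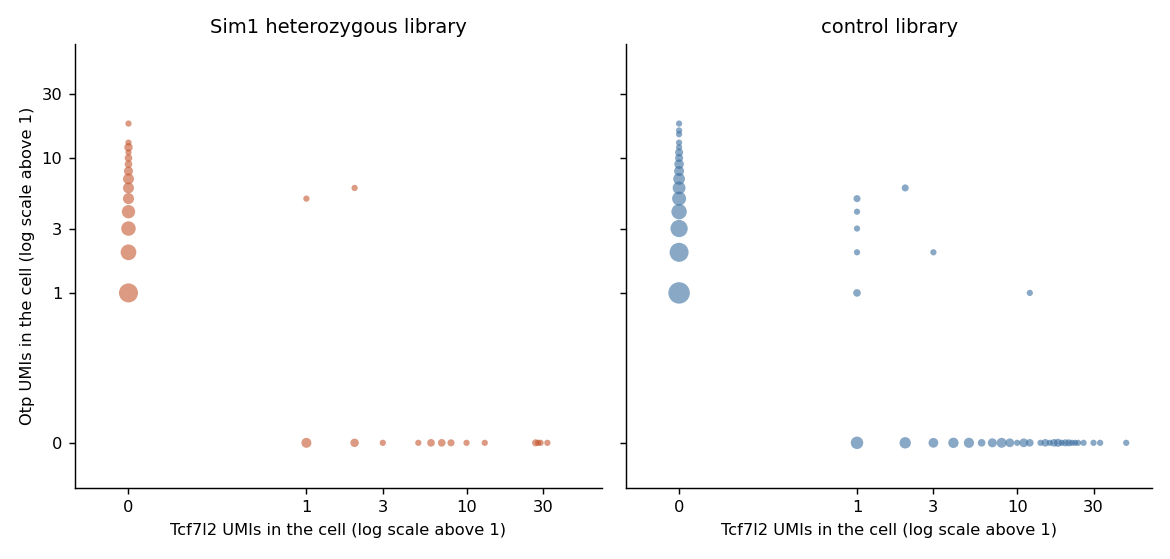
Otp UMIs against Tcf7l2 UMIs of each cell that held either, for the Sim1 heterozygous library (left) and the control library (right), with the area of a point growing with the number of cells at that pair of values. Most cells lie along the axes, and no cell of either library has 3 or more UMIs of both.

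In the control library Sim1, whose Cre driver marked the cells, was also rare in Tcf7l2 cells. It was found in 1 of 35 Tcf7l2-positive Sim1 heterozygous cells (2.86%, against 16.2% of negative ones) and in 8 of 158 Tcf7l2-positive control cells (5.06%, against 19.6% of negative ones). After thinning, Sim1 was found in 1 of 22 Tcf7l2-positive Sim1 heterozygous cells (4.55%, 0.12 to 22.8), against 6.76% of negative ones. That interval includes 6.76%, so a separation from Sim1 was not detectable at this depth in the Sim1 heterozygous library. Among thinned control cells Sim1 was found in 1 of 120 Tcf7l2-positive cells (0.833%, 0.02 to 4.56), against 8.66% of negative ones. On thinned cells Otp was found in 0 of 22 Tcf7l2-positive Sim1 heterozygous cells, which allows a share of up to 13.6%, and in 3 of 120 control cells (2.50%), against 11.8% of Tcf7l2-negative Sim1 heterozygous cells and 21.7% of Tcf7l2-negative control cells. Lhx9 cells held Otp in 0 of 17 Sim1 heterozygous cells, which allows a share of up to 17.6%, and in 3 of 81 control cells. Shox2 cells held Otp in 1 of 19 Sim1 heterozygous and 3 of 45 control cells. Neither Otp nor Sim1 was found in any Gbx2 cell, where the 0 of 25 control cells allows a share of up to 12%.

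In Lhx2 and Prox1 cells the shares with Otp were higher. Lhx2 cells held Otp in 5 of 12 Sim1 heterozygous cells and 23 of 59 control cells (39.0%), and Prox1 cells held it in 4 of 40 Sim1 heterozygous cells and 17 of 105 control cells (16.2%). The cells of each gene were then split, after these values were seen, by whether they also held Tcf7l2 or Lhx9. Since Tcf7l2 and Lhx9 cells of any kind seldom held Sim1 or Otp (3 of 40 Sim1 heterozygous and 18 of 163 control cells), low shares on that side repeat what was seen above. Of all cells with neither Tcf7l2 nor Lhx9, 29.3% of Sim1 heterozygous and 40.9% of control cells held Sim1 or Otp. Lhx2 cells with Tcf7l2 or Lhx9 held Sim1 or Otp in 0 of 3 Sim1 heterozygous and 1 of 29 control cells. Lhx2 cells with neither held them in 7 of 9 Sim1 heterozygous cells (77.8%) and 23 of 30 control cells (76.7%), above those shares. These Lhx2 cells had a median of 2519 UMIs in the Sim1 heterozygous and 1930 in the control library, against 1583 and 1772 over all cells. The part of depth was not tested. Of the 30 control cells 4 lay in the cluster led by Avp and Oxt, magnocellular genes, and Lhx2 UMIs of magnocellular cells were not told apart from free RNA. Prox1 cells with Tcf7l2 or Lhx9 held Sim1 or Otp in 0 of 8 Sim1 heterozygous and 1 of 43 control cells, and Prox1 cells with neither held them in 8 of 32 Sim1 heterozygous and 28 of 62 control cells (45.2%), near those shares. Shox2 cells with Tcf7l2 or Lhx9 held Sim1 or Otp in 0 of 12 Sim1 heterozygous and 1 of 38 control cells, and Shox2 cells with neither in 3 of 7 Sim1 heterozygous and 4 of 7 control cells. The control Lhx2 cells with Tcf7l2 or Lhx9 were deeper (median 2650 UMIs) than those with neither (1930), as were the control Prox1 cells (2523 with and 2232 without). On thinned control cells the counts with and without Tcf7l2 or Lhx9 were 0 of 8 against 7 of 15 for Lhx2, and 0 of 23 against 5 of 29 for Prox1. The share over all thinned cells with neither was not taken, so the thinned counts have no such share beside them. Of the 62 unthinned control Prox1 cells with neither, 6 lay in the Avp and Oxt cluster.

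**Figure D4:**
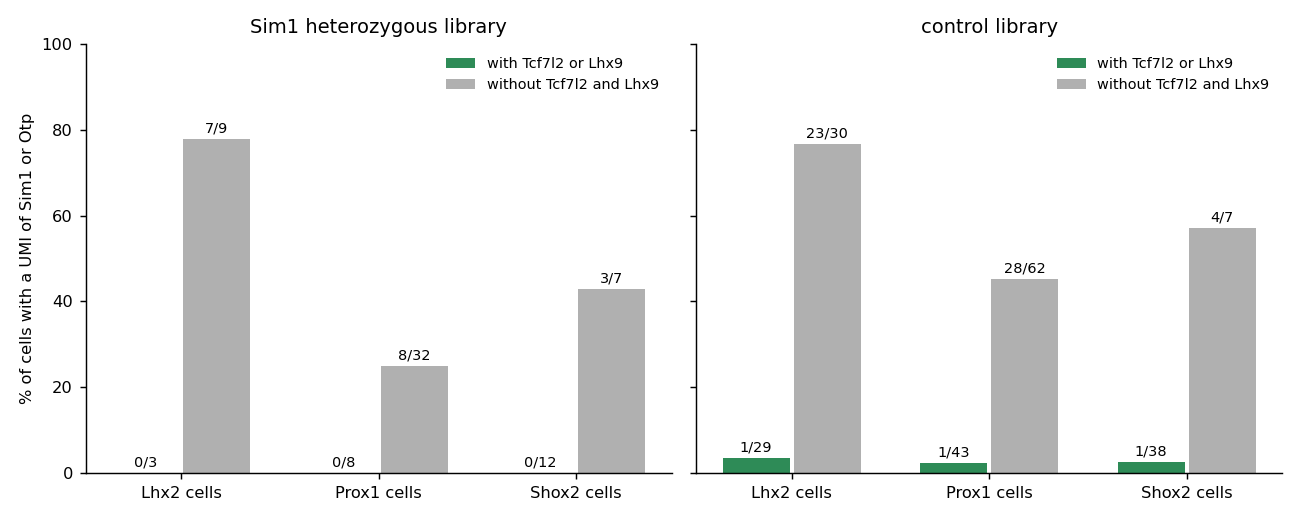
Share of unthinned Lhx2, Prox1 and Shox2 cells with a Sim1 or Otp UMI, in percent and with cell counts, for cells with (left bar) and without (right bar) a Tcf7l2 or Lhx9 UMI in the Sim1 heterozygous library (left) and the control library (right). The control Lhx2 cells without Tcf7l2 or Lhx9 stand at 76.7%.

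The Prox1 and Lhx2 cells of this split differed in other genes, picked after values were seen. In Prox1 cells with Tcf7l2 or Lhx9, the nuclear factor I gene Nfix had 0 UMIs in Sim1 heterozygous cells and stood at 14.4 CPM in control cells. In Prox1 cells without them it stood at 436 CPM in Sim1 heterozygous and 405 CPM in control cells. Kitl, which encodes the ligand of the Kit receptor, ran the other way. It stood at 895 CPM in Sim1 heterozygous and 1182 CPM in control Prox1 cells with Tcf7l2 or Lhx9, and at 42.5 CPM in Sim1 heterozygous and 10.4 CPM in control Prox1 cells without them. Trh, the precursor gene of thyrotropin-releasing hormone, had 0 UMIs in the 3 Sim1 heterozygous and 29 control Lhx2 cells with Tcf7l2 or Lhx9. In Lhx2 cells without them it had 3 UMIs in 2 of 9 Sim1 heterozygous cells and 23 UMIs in 5 of 30 control cells.

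Cells high in Pmch were few. Cells with at least 10 Pmch UMIs were 9 in the Sim1 heterozygous library, with 1873 Pmch UMIs, and 28 in the control library, with 8568 Pmch UMIs. One or more of the 7 genes was found in 0 of these 9 Sim1 heterozygous cells and in 3 of the 28 control cells (10.7%), 1 with Tcf7l2, 1 with Gbx2 and 1 with Shox2. In cells with no Pmch UMI the share was 3.76% in the Sim1 heterozygous library and 9.87% in the control library. Lhx9 was found in no cell with at least 10 Pmch UMIs, and neither was Otp, where the 0 of 28 control cells allows a share of up to 10.7%. Cells with 1 to 9 Pmch UMIs were 132 in the Sim1 heterozygous library, with 160 Pmch UMIs in all, and 133 in the control library, with 154. A Pmch UMI was found in 3 of 28 Sim1 heterozygous (10.7%) and 7 of 130 control magnocellular cells (5.38%), against 5.75% of all Sim1 heterozygous and 5.74% of all control cells, so single Pmch UMIs are read as background. At 2 UMIs or more of each gene, 0 of 23 Sim1 heterozygous Tcf7l2 cells held Pmch, which allows a share of up to 13.0%, against 0.946% of the other cells. In the control library 0 of 120 did, which allows up to 2.50%, against 1.71% of the other cells, so a separation of Tcf7l2 from Pmch was not detectable at this depth.

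Cells were clustered without the 7 genes and without Sim1, Otp and Pmch, and clusters are called by their leading genes. The cluster led by the zinc-finger genes Zic4 and Zic1 held 66.8% of the Sim1 heterozygous Tcf7l2 UMIs and 78.9% of the control ones, and it held 55.2% of the Sim1 heterozygous and 83.2% of the control Lhx9 UMIs. It had 157 Sim1 heterozygous cells and 382 control cells, numbers that are given only as denominators, since Zic4 and Zic1 themselves differ between the libraries. Within it Tcf7l2 stood at 348 CPM in Sim1 heterozygous cells and 769 CPM in control cells, a log2 ratio of -1.14 (-1.39 to -0.91), and was found in 13 Sim1 heterozygous (8.28%) and 87 control cells (22.8%). Lhx9 had a log2 ratio of -1.82 (-2.75 to -1.15) there, and Gbx2, with 3 UMIs in Sim1 heterozygous and 25 UMIs in control cells, one of -1.53 (-4.26 to -0.18). Prox1 (-0.28, -0.90 to 0.27), Shox2 (-0.21, -1.27 to 0.64) and Lhx2 (-0.42, -1.70 to 0.55) had intervals that include 0. Otp within the cluster had a log2 ratio of 0.11.

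Cells of the Zic4 and Zic1 cluster were split by Tcf7l2, Lhx9 and Otp, also after values were seen. Cells with Tcf7l2 or Lhx9 and no Otp UMI were 14 of the Sim1 heterozygous cells (8.92%) and 87 of the control cells (22.8%). Cells with Otp and neither of them were 108 of the Sim1 heterozygous (68.8%) and 233 of the control cells (61.0%), and 0 Sim1 heterozygous and 2 control cells held Otp with 1 of them. None of the 3 genes was found in 35 Sim1 heterozygous (22.3%) and 60 control cells (15.7%). Zic4 was at like levels in each kind, at 730 CPM in Sim1 heterozygous and 871 CPM in control cells of the first kind, and at 729 CPM in Sim1 heterozygous and 752 CPM in control cells of the Otp kind. Zic1 stood at 301 CPM in Sim1 heterozygous and 637 CPM in control cells of the first kind, and at 797 CPM in Sim1 heterozygous and 717 CPM in control cells of the Otp kind. Kitl stood at 793 CPM in Sim1 heterozygous and 933 CPM in control cells of the first kind, and at 62.6 CPM in Sim1 heterozygous and 56.5 CPM in control cells of the Otp kind. Sox2, a factor of neural precursors that some thalamic neurons keep, stood at 238 CPM in Sim1 heterozygous and 168 CPM in control cells of the first kind, and had 0 UMIs in the Otp kind of either library. Foxp2, a forkhead gene of thalamic neurons, stood at 190 CPM in Sim1 heterozygous and 209 CPM in control cells of the first kind, and at 8.54 CPM in Sim1 heterozygous and 3.05 CPM in control cells of the Otp kind. Kitl, Foxp2 and Sox2 were thus higher in the first kind in both libraries. The Sim1 heterozygous values of that kind rest on few cells, with 50 Kitl UMIs in 8, 15 Sox2 UMIs in 5 and 12 Foxp2 UMIs in 3. Apart from these genes and Zic1 and Zic4, the genes of the thalamus list described further on were not measured in this split. The cluster held 13 of the 35 Sim1 heterozygous and 87 of the 158 control Tcf7l2 cells, and 108 of the 432 Sim1 heterozygous and 235 of the 817 control Otp cells, so most Otp cells lay in other clusters.

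Outside that cluster the members parted. Prox1 was also found in the cluster led by Nfib and Asb4, at 65.5 CPM in Sim1 heterozygous cells and 63.2 CPM in control cells, in 18 of 209 Sim1 heterozygous and 32 of 291 control cells. In the cluster led by the inhibitory neuron genes Slc32a1 and Gad2, Prox1 had 0 UMIs in 19 Sim1 heterozygous cells and 12 UMIs in 50 control cells (120 CPM). With so few cells a difference there was not detectable at this depth. In the Serp2 and Mrpl52 cluster Tcf7l2 had 4 UMIs in 3 of 247 Sim1 heterozygous cells and 84 UMIs in 19 of 398 control cells.

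**Figure D5:**
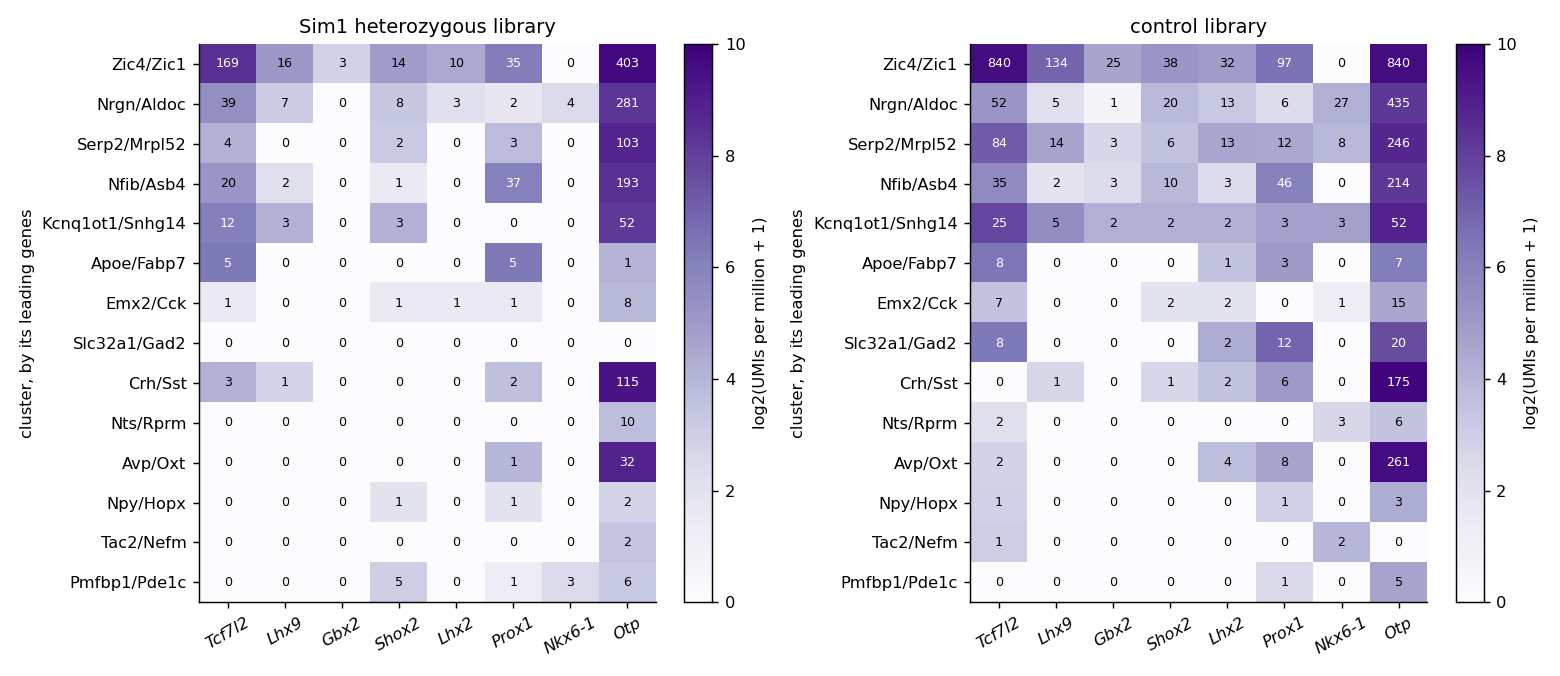
Level of the 7 genes and Otp in each cluster as log2(CPM + 1), shown as colour, with the number of UMIs printed, for the Sim1 heterozygous library (left) and the control library (right). The Zic4 and Zic1 cluster holds 169 Sim1 heterozygous and 840 control Tcf7l2 UMIs, and Nkx6-1 has none there.

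In the control library Nkx6-1 differed from the other 6 genes in its clusters. It shared a cell with one of them, Tcf7l2, in 1 of 5 Sim1 heterozygous cells and with none in 18 control cells, which allows a share of up to 16.7%. Of all cells, 1.43% of Sim1 heterozygous and 5.63% of control cells held Tcf7l2. One or more of the 7 genes was found in 3.75% of Sim1 heterozygous and 10.1% of control cells. A separation within cells was thus not detectable at this depth. Nkx6-1 had no UMI in the Zic4 and Zic1 cluster of either library, and 4 of its 7 Sim1 heterozygous UMIs and 27 of its 44 control UMIs lay in the Nrgn and Aldoc cluster. The 0 of 18 control cells again allows up to 16.7%, and the Zic4 and Zic1 cluster held 382 of the 2806 control cells. By cells, 10 of the 18 control Nkx6-1 cells lay in the Nrgn and Aldoc cluster. In the Sim1 heterozygous library 3 of the 5 Nkx6-1 cells lay in the Pmfbp1 and Pde1c cluster, and 1 cell held 3 of the 7 UMIs. Nkx6-1 cells were deep, with a median of 8651 UMIs in the Sim1 heterozygous library and 3506 UMIs in the control library. Sim1 was found in 1 of 5 Sim1 heterozygous and 4 of 18 control Nkx6-1 cells.

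For each gene the 5 genes most like it were taken, by the ratio of the level in its positive cells over its negative cells, ranked by the smaller ratio of the libraries. A gene had to have at least 10 UMIs, in at least 5 positive cells, in each library. For Tcf7l2 these were Shox2 (183-fold in Sim1 heterozygous and 139-fold in control cells), Lhx9 (120-fold in Sim1 heterozygous and 349-fold in control cells), Prox1, Kitl (13.2-fold in Sim1 heterozygous and 22.7-fold in control cells) and Sox2 (14.0-fold in Sim1 heterozygous and 9.43-fold in control cells). Lhx9 cells had Tcf7l2, Shox2, Kitl, Prox1 and Id4, an inhibitor of bHLH factors. Prox1 cells had Tcf7l2, Lhx9, Kitl, Nfix and Sox2ot, a noncoding RNA around Sox2, and Shox2 cells had Tcf7l2, Lhx9, Nr2f1, S100a10 and Zic4. Lhx2 cells had Id4, Zic4, Zic1, Foxp1 and Rnf220, none of them over 10-fold in either library. Nkx6-1 cells, which are few and deep, had Tmem132a, Dnm1, Cntn1, Pgm2l1 and Myh10 at 1.59-fold to 2.41-fold. Gbx2 had too few Sim1 heterozygous cells for such a ranking. The ranking shares libraries with the pairs above and adds no independent evidence of them.

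Genes of the thalamus were measured in Tcf7l2-positive against Tcf7l2-negative cells. In Sim1 heterozygous cells 17.6% of the 11952 genes with enough UMIs were higher by at least 1.5-fold in the positive cells and 30.2% were lower. In control cells 11.6% of 12674 were higher and 16.1% lower. Of the thalamus list, 9 of 17 were higher and 5 lower in Sim1 heterozygous cells, with a median log2 ratio of 0.62 beside -0.10 over all genes. In control cells 11 of 18 were higher and 3 lower, and the median was 1.02 beside -0.02. Rora, Lef1, Foxp2, Ntng1, Calb2, Zic1, Zic4, Kitl and Sox2 were higher in both libraries. The gene lists were chosen with earlier results of these data known. Kitl and Sox2 are also among the 5 genes most like Tcf7l2, and Zic4 and Zic1 lead the cluster with most Tcf7l2 UMIs. The thalamus counts are therefore a description and no independent evidence of what these cells are. Zic1 and Zic4 are not particular to these cells. In Otp cells of their cluster Zic1 stood at 797 CPM in Sim1 heterozygous and 717 CPM in control cells. Zic4 stood there at 729 CPM in Sim1 heterozygous and 752 CPM in control cells.

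Among them, Kitl had a log2 ratio of 3.70 in Sim1 heterozygous and 4.49 in control cells. Lef1, which encodes a relative of Tcf7l2, had one of 3.20 in Sim1 heterozygous and 3.22 in control cells, and Foxp2 one of 2.52 in Sim1 heterozygous and 2.79 in control cells. Rora, a nuclear receptor gene of thalamic neurons, had one of 1.45 in Sim1 heterozygous and 2.24 in control cells. Calb1, a calcium-binding protein gene of the same list, was lower in Tcf7l2-positive cells, with -1.75 in Sim1 heterozygous and -1.04 in control cells. Slc17a6, the vesicular glutamate transporter gene, stood at 0.57 in Sim1 heterozygous and 0.04 in control cells.

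Genes of the Wnt pathway were mixed in Tcf7l2-positive cells. Of 15 in the Sim1 heterozygous library 2 were higher and 4 lower, beside 17.6% of all genes higher and 30.2% lower. These counts lie near the shares over all genes, so nothing is read from them. Of 16 in the control library 6 were higher and 3 lower, beside 11.6% of all genes higher and 16.1% lower. Lef1 and the ligand gene Wnt3 were higher in both, with Wnt3 at a log2 ratio of 2.18 in Sim1 heterozygous and 1.97 in control cells. The corepressor gene Tle4 was lower, at -2.35 in Sim1 heterozygous and -1.0 in control cells, and Ctnnb1, which encodes beta-catenin, stood at 0.57 in Sim1 heterozygous and 0.51 in control cells.

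Genes of mammillary neurons were lower in Tcf7l2-positive cells, and those of other hypothalamic nuclei were mixed. Over all genes, 30.2% were lower and 17.6% higher in Sim1 heterozygous cells, and 16.1% lower and 11.6% higher in control cells. Of mammillary genes, 8 of 8 were lower in Sim1 heterozygous and 7 of 8 in control cells, with the forkhead gene Foxb1 at -2.82 in Sim1 heterozygous and -2.79 in control cells. Of factors of the paraventricular hypothalamus, 5 of 11 were lower and 1 higher in Sim1 heterozygous cells, and 7 of 11 were lower and 0 higher in control cells. Of lateral hypothalamic genes, 3 of 7 were lower and 2 higher in Sim1 heterozygous cells (median log2 ratio -0.06), and 5 of 8 were lower and 1 higher in control cells (median -1.12). The homeobox gene Uncx, one of the paraventricular factors, stood at -2.86 in Sim1 heterozygous and -2.47 in control cells. Summed neuron markers stood at 16593 CPM in Tcf7l2-positive and 14377 CPM in Tcf7l2-negative Sim1 heterozygous cells, and at 18584 CPM in positive and 16313 CPM in negative control cells. Summed astrocyte and radial glia markers stood at 1689 CPM in positive and 662 CPM in negative Sim1 heterozygous cells, with 8 of 9 markers seen and Vim at 0 in the positive cells, and at 710 CPM in positive and 574 CPM in negative control cells. The part of glia in these differences was not tested.

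Between the libraries the thalamus and mammillary lists differed more often than the Wnt list, beside 9.27% of all genes lower and 7.82% higher. So did the shorter lateral hypothalamic list, while the habenular list and the prethalamic and GABA list are given below as counts only. Of 20 thalamus genes, 6 were lower in the Sim1 heterozygous library, 4 were higher and 10 were within 1.5-fold, and the list's median was -0.14 on the log2 scale. The lower ones were Prkcd (-0.91, -1.87 to -0.11), Zic4 (-0.85, -1.02 to -0.69), Kitl (-0.73, -0.98 to -0.50), Zic1 (-0.72, -0.88 to -0.56), Foxp2 (-0.69, -1.04 to -0.37) and Etv1 (-0.59, -1.34 to 0.07). The interval of Etv1, a gene also of the habenular list, includes 0. Prkcd had 17 UMIs in Sim1 heterozygous and 40 UMIs in control cells. The higher ones were Cdh6 (1.58), Calb1 (1.20), Rorb (0.76) and Epha4 (0.62), of which Cdh6 had 31 UMIs in Sim1 heterozygous and 12 in control cells. Of the 9 thalamus genes higher in Tcf7l2-positive cells of both libraries, 4 were among the lower ones here (Zic4, Zic1, Kitl and Foxp2), and 5 were within 1.5-fold (Sox2 -0.39, Rora -0.26, Calb2 -0.20, Ntng1 -0.07 and Lef1 0.05). These comparisons share cells and are not independent. Of 10 mammillary genes 4 were higher in the Sim1 heterozygous library and 0 lower, with a median of 0.32, and the higher ones were Lhx1 (0.86), Foxb1 (0.82), Cdh11 (0.73) and Nkx2-1 (0.70). The part of mammillary cells in the levels of the 7 genes was not tested. Of 17 Wnt genes 2 were lower and 0 higher, the lower ones being Nkd1, which encodes an inhibitor (-1.05, -2.27 to -0.08), and Rspo3, which encodes an enhancer of Wnt signals (-1.31, -2.41 to -0.45). Ctnnb1 stood at -0.15 and the list's median at -0.01. Of 8 relatives of the 7 genes, other LIM, TCF and cofactor genes, Lhx1 was again the higher one and Lmo4 was lower (-0.63). Of 11 factors of the paraventricular hypothalamus 0 were higher and 1 lower, of 8 lateral hypothalamic genes 3 were higher and 1 lower, of 7 habenular genes 1 was higher and 3 lower, and of 5 prethalamic and GABA genes 1 was higher and 2 lower.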

How the data were processed

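The authors deposited UMI counts, as a table of genes by barcodes for the Sim1 heterozygous cells, a like table for the control cells and a merged table of identical counts. The submitters' processing notes name bcl2fastq, Picard, STAR 2.6.0b, Seurat 3 and the mm10 build. Which counter, annotation and strand setting were used, and how barcodes were called cells, is not stated in the labels.

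Barcodes with under 300 genes were left out (22 Sim1 heterozygous, 1 control). Counts were summed over cells to CPM with exact Poisson intervals. Log2 ratios between the libraries used 1 UMI as pseudocount and conditional exact binomial intervals, and ratios of positive over negative cells used 2 UMIs split by total. Ratios were taken for genes with at least 30 UMIs. Shares have Clopper-Pearson intervals, and 3 cells were taken as the limit that a count of 0 allows. Thinning to 857 UMIs, the lower quartile of depth in Sim1 heterozygous cells, left out 613 Sim1 heterozygous and 156 control cells. Clusters used 2000 variable genes, 30 principal components, 20 neighbours and Leiden resolution 1. No doublet caller was run, and 1 alternative left out the deepest 1% of cells. The steps were tested on simulated data.

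The members and gene lists were chosen with earlier results of these data known. Genes outside the lists were named by a rule, the 5 genes most like each member, or where said, after values were seen. Differences compare 2 libraries and not 2 conditions. The tools were scanpy 1.11.5, leidenalg 0.10.2 and igraph 0.11.9 for clustering, scipy 1.17.1, numpy 2.4.6, scikit-learn 1.9.0 and pandas 2.3.3 for the values and matplotlib 3.10.9 for figures, under Python 3.11.15.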

Additional observations from a re-analysis of the deposited data

How the results depend on the processing

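All 7 log2 ratios kept their direction under the 10 alternatives run, which changed the cell filter, the pseudocount, the scaling and the cells entering. Tcf7l2 ran from -2.03 to -1.79, Lhx9 from -2.35 to -2.12, Lhx2 from -2.22 to -1.99, Gbx2 from -4.11 to -2.81, Shox2 from -1.16 to -0.84, Prox1 from -1.11 to -0.82 and Nkx6-1 from -3.21 to -2.18. The value that moved past its interval was Tcf7l2 at -2.03, taken as the mean over cells of per-cell CPM. One alternative, chosen after seeing the data, left out the cell with most UMIs of the gene in each library, and Gbx2 then stood at -3.72 and Tcf7l2 at -1.92. Shares of cells depended on depth. The control Tcf7l2 cells with Lhx9 were 29.2% thinned to the lower quartile of depth, 45.7% thinned to 1583 UMIs, the median, and 48.1% unthinned, and those with Otp 2.50% thinned and 7.59% unthinned. Control Lhx9 cells with Tcf7l2 were 75.6% in a second draw, against 89.7%. The cause of these shifts beyond fewer UMIs per cell was not tested. Ratios within the Zic4 and Zic1 cluster kept their direction at Leiden resolutions 0.5 and 2. With a minimum of 10 UMIs in place of 30, 4 Wnt genes were lower and 3 higher between the libraries, and 7 Wnt genes were higher in Tcf7l2-positive Sim1 heterozygous cells. No paired analysis was possible because each genotype has 1 library, and no replicate could be left out for the same reason.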
